A study of Mus musculus with 24 samples.

Results

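The interleukin-6 (IL-6) family and the signalling route through STAT3 were examined in injured mouse brain. Of the 36333 genes in the expression table, 10 were taken by their symbols: 4 ligands (Il6, Lif, Osm and Cntf), 4 receptor chains (Il6ra, Il6st, Lifr and Osmr), the transcription factor gene Stat3 and its feedback inhibitor Socs3. All 10 were found, 9 of them were abundant enough to be tested, and Il6 was not.

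RNA was sequenced from 24 male C57BL6N mice aged 12 to 16 weeks, with 1 library per mouse, at 5 days post injury (dpi). Traumatic brain injury (TBI) was made by controlled cortical impact, and groups of 5 mice then received vehicle, PLX3397, Anakinra or PLX3397+Anakinra, while 4 mice had sham surgery. PLX3397, an inhibitor of the receptor kinase CSF1R on which microglia depend, was eaten freely in chow at 290 mg per kg of food from 90 min on, and Anakinra, a recombinant antagonist of the interleukin-1 receptor, was injected under the skin at 100 mg/kg at 5 min, 24 h, 48 h and 72 h. The methods name the substrain C57BL/6JRj and an age range that starts at 12 weeks but ends before 16. They also state that mice without a drug got control chow or saline. By the methods, sham mice had anesthesia and a sutured skin incision but no craniotomy. Effects of the craniotomy and of the impact therefore cannot be told apart in comparisons with sham. Cortex is the only tissue named in the labels, but according to the methods the sampled quadrant also took in striatum, thalamus and dorsal hippocampus. Markers of cortex, striatum and thalamus averaged at least 16.2 TPM in every group. Levels are in TPM, which divide the reads of a gene by its length and by the library total, so that different genes can be compared. Both drugs were started within minutes to hours of the impact, and the values describe whole tissue of male mice at a single time.

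Cytokines of this family signal through the shared chain gp130, the product of Il6st. IL-6 first binds its own receptor chain (Il6ra), leukaemia inhibitory factor (Lif) pairs gp130 with Lifr, and oncostatin M (Osm) in mice pairs it mainly with Osmr. Ciliary neurotrophic factor (Cntf) uses Cntfr together with gp130 and Lifr. The receptors activate JAK kinases, which phosphorylate STAT3. STAT3 then enters the nucleus and switches on target genes, among them Socs3, whose protein shuts the receptor down. In injured brain the route is best known for driving the reaction of astrocytes.

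On the GRCm38 assembly all 10 are protein-coding genes. Osm (chr11:4236420-4241026) and Lif (chr11:4257557-4272514) are neighbours on the plus strand, and Il6 lies at chr5:30013114-30019981 on the same strand. Cntf (chr19:12763660-12765632, minus strand) lies wholly inside the span of Zfp91 on the same strand, so reads may be shared between them. The receptor genes are Il6ra (chr3:89864059-89913196, minus), Il6st (chr13:112464070-112510086, plus), Lifr (chr15:7090614-7197489, plus) and Osmr (chr15:6813577-6874969, minus). Stat3 (chr11:100885098-100939540, minus) overlaps the end of Stat5a on the other strand, and Socs3 lies at chr11:117966079-117970047 on the minus strand.

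Promoter sequence is shown for Socs3, because it is the classical STAT3 target among the 10 genes. RefSeq promoters were matched for 9 of the 10 genes (not Osm), giving 10 windows of the 250 bases before a start, since Lifr has a pair of starts. The STAT consensus TTCNNNGAA, which reads the same on both strands, occurred once in the Socs3 window and in none of the other windows. All 250 bases of the Osmr window lay in exons of Osmr transcripts in GENCODE. For Osmr the absence therefore may not describe the promoter. Of all 32851 promoter windows of that length, 7.02% held it. The stretch printed is chr11:117969452-117969616 of GRCm38.p6, minus strand, 165 bases from 5′ to 3′ with the match in capitals.
Socs3: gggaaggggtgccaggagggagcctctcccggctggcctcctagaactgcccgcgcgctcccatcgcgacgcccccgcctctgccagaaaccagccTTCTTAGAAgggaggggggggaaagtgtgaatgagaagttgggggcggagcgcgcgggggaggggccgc
The match begins 154 bases before the RefSeq start. It begins 334 bases before the start of the coding transcript Socs3-201 in GENCODE, and inside an intron of the non-coding transcript Socs3-202. The bases next to the Socs3-201 start lay outside the window and were not searched. The printed match therefore need not be the site through which STAT3 acts on Socs3. A match describes letters only, and no binding was measured.

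Between 22160 and 23249 genes per library were above 0. Read counts were not given, so the depth is unknown, and precision rests on the spread between mice. Vehicle mouse J17B had the lowest level of the 5 vehicle mice for 7 of the 9 tested genes, and the lowest summed level of 6 monocyte and macrophage markers (1508 TPM against 2219 to 2924). The summed level of 5 fibroblast markers was low in J17B (85.9 TPM) and also in J20B (116 TPM), against 559 to 693 TPM in the other 3. Vehicle mouse J18B had the highest level for 6 of the 9 genes. Results that rest on the vehicle mice are therefore also given without single mice where they changed. Only vehicle mice carry a letter B in their animal numbers. If it marks a batch, batch and vehicle cannot be told apart.

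Levels of cell type and region markers also differed between groups, by the same test that is used for the genes below. After injury, where 54.3% of all genes were called, all 5 neuronal, all 4 cortical and 2 of 3 thalamic markers fell. Of the striatal markers 0 of 4 were called (0 at an unadjusted p below 0.05). The rises included 5 of 5 fibroblast, 4 of 6 endothelial, 4 of 5 oligodendrocyte and all 3 tested neutrophil markers. Against vehicle, 9.89% of all genes were called with PLX3397, 17.5% with the combination and 0.116% with Anakinra. There, 4 of 5 fibroblast markers were higher with PLX3397 and with the combination. So were 2 and 3 of 5 neuronal markers and 1 and 3 of 4 cortical markers. Of the thalamic markers 1 and 0 of 3 were higher, and of the oligodendrocyte markers 1 and 0 of 5. Of the astrocyte markers 1 rose with PLX3397, 1 rose and 1 fell with the combination, and 1 neutrophil marker (Mmp8) fell with each drug. Endothelial and striatal markers gave no call with any drug (up to 2 of a list at an unadjusted p below 0.05), and Anakinra alone gave none beside Mmp8 in any list. At an unadjusted p below 0.05, however, 5 of 5 fibroblast markers passed with Anakinra, with a median log2 difference of 1.85, against 1.44 with PLX3397 and 1.61 with the combination. So did 5 of 6 astrocyte markers, whose median was -0.14. What part such shifts had in the values below was not tested, beyond the markers set beside single genes.

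Differences were tested on log2(TPM + 1) with limma over 17267 genes, and a gene was called at a Benjamini-Hochberg adjusted p below 0.05. Fold changes quoted as ratios are ratios of mean TPM, and log2 values come from the model, which understates changes of genes near 1 TPM.

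The first comparison asked what injury, craniotomy included, did without a drug. At 5 dpi 8 of the 9 tested genes were higher in vehicle than in sham mice, and Lifr was the exception. Of all genes tested, 54.3% were called in that comparison, in both directions. The median log2 difference over the 9 genes was 1.00, against -0.01 over all genes tested.

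Among the ligands, Cntf was the most abundant. Cntf, a survival factor for neurons that glia store, stood at 1.18, 1.13, 1.45 and 1.19 TPM in the sham mice. The vehicle mice had 9.02, 12.2, 13.8, 13.5 and 12.1 TPM. Every vehicle mouse was therefore far above every sham mouse, by 9.82-fold in the means (log2 difference 2.54 ± 0.13 SE, adjusted p = 2.46e-14). Zfp91, which shares its locus, averaged 93.4 ± 3.2 TPM in vehicle and 96.1 ± 6.1 TPM in sham mice (SD, n = 5 and 4) and thus did not move with Cntf.

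Osm, made mainly by myeloid cells, was almost silent without injury. Sham mice had 0.223, 0.213, 0.0656 and 0.0577 TPM. Vehicle mice had 2.02, 0.993, 2.45, 1.90 and 1.78 TPM, with J17B the lowest but still above every sham mouse. The means differed 13.1-fold (log2 difference 1.29 ± 0.15 SE, adjusted p = 6.15e-08).

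Lif, which supports glia and neurons after injury, was scarce in all groups. Its level was 0.341 ± 0.14 TPM in sham (SD, n = 4) and 0.877 ± 0.18 TPM in vehicle mice (SD, n = 5), without overlap. That is a 2.58-fold rise (log2 difference 0.49 ± 0.10 SE, adjusted p = 0.000175).

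Il6 itself was the least abundant ligand and fell under the limit for testing, a mean of 0.5 TPM. It is listed at 0 in all 4 sham mice. Vehicle mice had 0.121, 0.237, 0.221, 0 and 0.170 TPM. The highest single value of the series, 0.757 TPM, came from a PLX3397 mouse, whose group also held a mouse at 0. An exact two-sided permutation test gave p = 0.0794 for vehicle against sham (adjusted p = 0.199 over 10 comparisons). Without tied values, 0.0159 is the smallest p that 5 against 4 mice allow. All 4 sham mice and 1 vehicle mouse were tied at 0, so a rise over sham could not pass the test. Each drug group also held a mouse at 0, so the same limit holds there against sham. No comparison of Il6 passed the test in either direction, and those against sham cannot decide whether Il6 rose.

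**Figure D1:**
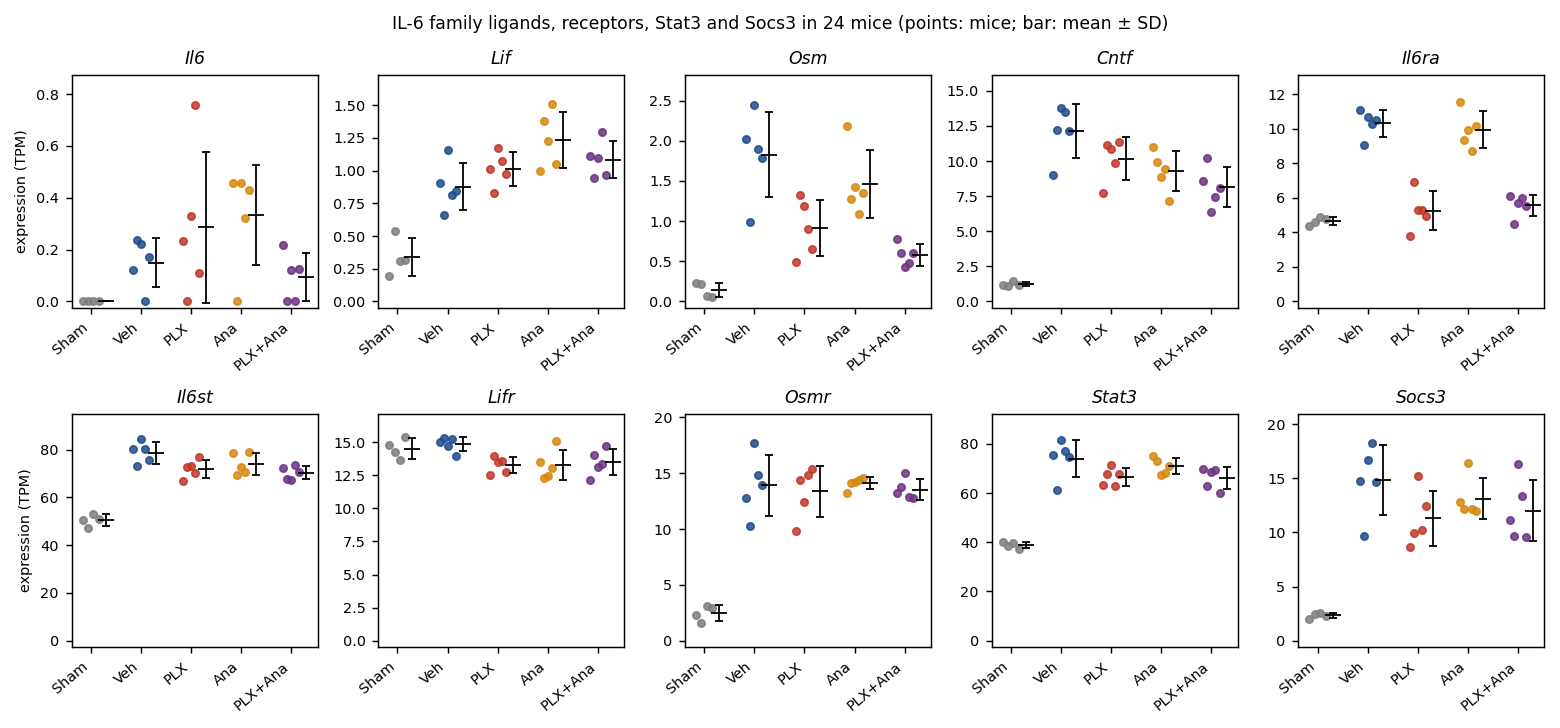
Expression in TPM of the 10 genes in each of 24 mice, by group (Sham n = 4; Veh, vehicle; PLX, PLX3397; Ana, Anakinra; PLX+Ana, the combination; n = 5 each). Points are mice, and the bar with whiskers is the mean ± SD. Il6ra in both PLX3397 groups sits near the sham mice, whereas Osmr stays between 9.82 and 17.7 TPM in all injured mice.

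The receptor chains did not move alike. Osmr, the signalling partner of gp130 for oncostatin M, rose most. Sham mice had 2.27, 1.59, 3.1 and 2.92 TPM and vehicle mice 12.8, 10.3, 17.7, 14.9 and 14 TPM. The groups were well apart, with a 5.63-fold difference of means (log2 difference 2.11 ± 0.13 SE, adjusted p = 1.3e-12).

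Il6ra, the chain that gives a cell its own answer to IL-6, was at 4.37, 4.62, 4.89 and 4.76 TPM in sham mice. In vehicle mice it was at 11.1, 9.05, 10.7, 10.3 and 10.5 TPM, again without overlap. The rise was 2.22-fold (log2 difference 1.00 ± 0.10 SE, adjusted p = 1.52e-08).

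Il6st, the shared chain, was the most abundant of the receptors and rose least among those that changed. It went from 50.5 ± 2.4 TPM (SD, n = 4) to 78.7 ± 4.5 TPM (SD, n = 5), a 1.56-fold difference without overlap (log2 difference 0.63 ± 0.05 SE, adjusted p = 1.48e-10). Lifr, the chain shared by LIF and CNTF, had 14.5 ± 0.77 TPM (SD, n = 4) in sham and 14.9 ± 0.55 TPM (SD, n = 5) in vehicle mice. Its log2 difference was 0.03 with a 95% interval from -0.09 to 0.16 and was not called (adjusted p = 0.67).

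Stat3 mRNA was already plentiful without injury. It measured 40.1, 38.5, 39.7 and 37.3 TPM in sham mice and 75.4, 61.3, 81.4, 77.1 and 74.8 TPM in vehicle mice. The groups were separate, with a 1.90-fold rise (log2 difference 0.90 ± 0.06 SE, adjusted p = 1.04e-11).

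Socs3, the inhibitor whose promoter stretch is printed above, rose more steeply than Stat3. Sham mice had 2.05, 2.47, 2.55 and 2.31 TPM, and vehicle mice had 14.7, 9.66, 16.7, 18.2 and 14.7 TPM. The lowest vehicle value, again J17B, still exceeded every sham mouse. The means differed 6.32-fold (log2 difference 2.21 ± 0.16 SE, adjusted p = 1.89e-11). mRNA levels say nothing of how much STAT3 was phosphorylated.

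The other genes of the route were counted from lists. Of 16 STAT3 target genes 15 were higher in vehicle than in sham mice and none was lower, beside the 54.3% called among all genes. The smallest adjusted p values belonged to Gfap, the filament protein of reactive astrocytes (log2 difference 4.06), Serpina3n, a secreted protease inhibitor (4.42), Vim, another filament protein (3.64), and Cd44, a hyaluronan receptor (3.16). Only Bcl2l1, a survival gene, was not called (-0.10, adjusted p = 0.206).

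Of the 12 other family ligands and receptors 8 were tested, and 3 of those rose after injury. Of all 17267 genes tested 4600 rose, and 54.3% were called in either direction. Clcf1, a ligand of the CNTF receptor, rose by a log2 difference of 1.60, Ebi3, a subunit of interleukin-27, by 1.11, and Ctf1 (cardiotrophin 1) by 0.35. Cntfr itself was not called (log2 difference -0.04, adjusted p = 0.695), and its mean was 25.8 TPM in vehicle and 26.5 TPM in sham mice.

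Of 12 JAK kinases and regulators 5 rose and 2 fell, against the same 54.3% of all genes. Ptpn6, the phosphatase SHP-1 of blood and immune cells, rose most (log2 difference 3.04), followed by Adam17, a protease that sheds the IL-6 receptor (1.20), Socs1 (0.68) and Adam10, a related protease (0.50). Those that fell were Socs2 (log2 difference -0.19, adjusted p = 0.0118) and Ptpn11, the phosphatase SHP-2 (-0.10, adjusted p = 0.024). Jak1, the main kinase at gp130, was not called (-0.08, adjusted p = 0.0537).

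**Figure D2:**
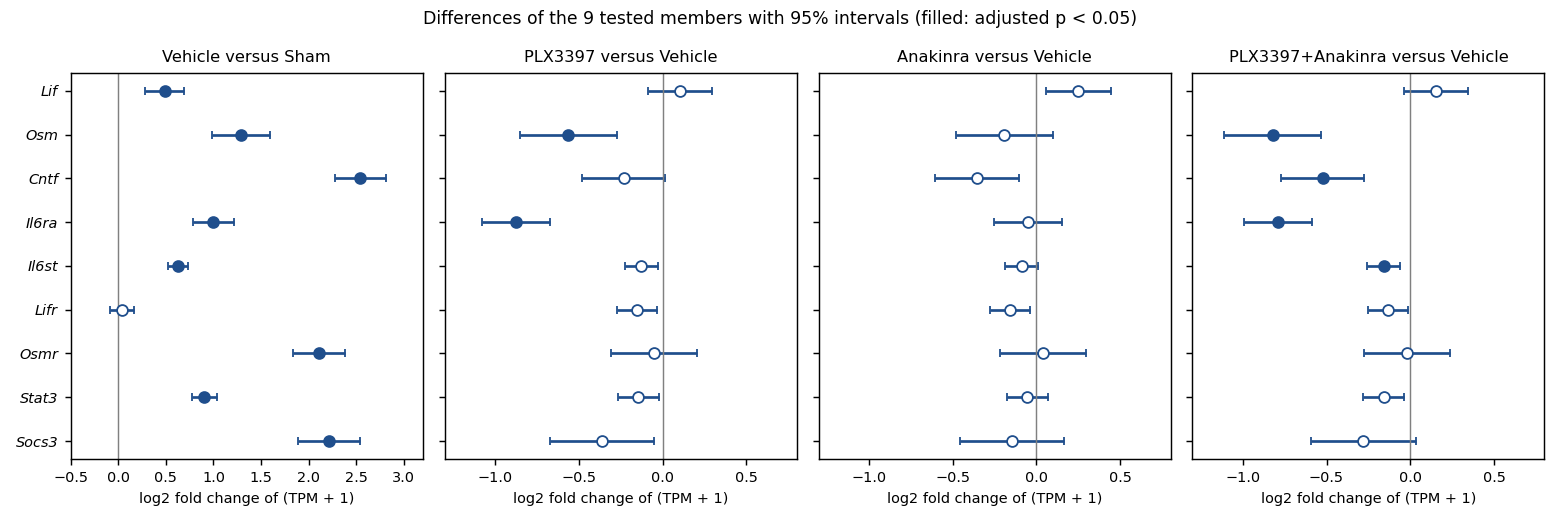
Differences of 9 genes on the log2(TPM + 1) scale, as points with 95% intervals from limma, for vehicle against sham and each drug against vehicle. Filled points have an adjusted p below 0.05. After injury 8 genes lie to the right of 0, and with the drugs only Il6ra, Osm, Cntf and Il6st have filled points, all to the left.

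The next comparisons asked what each drug changed in injured mice. The 3 drug groups were set against the same 5 vehicle mice. With PLX3397, 2 of the 9 genes fell (Il6ra and Osm) and none rose, where 9.89% of all genes were called. With Anakinra none of the 9 was called, where 0.116% of all genes were, and 3 (Lif, Cntf and Lifr) had an unadjusted p below 0.05. With PLX3397+Anakinra 4 fell (Osm, Cntf, Il6ra and Il6st) and none rose, where 17.5% of all genes were called. Over the 4 injured groups, limma's F-test called 3 genes (Osm, Cntf and Il6ra), where 15.7% of all genes were called. Without vehicle mouse J17B, 5 genes fell with PLX3397 and 6 with the combination, and the F-test called 5. J17B was singled out by its low levels of these same genes, so leaving it out favours falls. Without vehicle mouse J18B, in turn, Il6st lost its call with the combination (adjusted p = 0.083).

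Il6ra showed the clearest response. Mice given PLX3397 had 3.77, 6.92, 5.32, 5.30 and 4.97 TPM. Mice given both drugs had 6.11, 4.52, 5.70, 5.99 and 5.52 TPM. Each of these 10 mice lay below every vehicle mouse. The mean was 0.509 of vehicle with PLX3397 (log2 difference -0.87 ± 0.10 SE, adjusted p = 6.98e-07) and 0.539 of vehicle with the combination (-0.79 ± 0.10 SE, adjusted p = 1.64e-06).

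Anakinra alone left Il6ra near the vehicle level. Its mice had 11.6, 9.35, 9.95, 8.74 and 10.2 TPM, overlapping the vehicle mice (log2 difference -0.05, 95% interval from -0.26 to 0.15, adjusted p = 0.874).

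Against sham, Il6ra was not called with PLX3397 (5.26 against 4.66 TPM, log2 difference 0.13, 95% interval from -0.09 to 0.34, adjusted p = 0.347). With both drugs the log2 difference from sham was 0.21 (adjusted p = 0.121), and without mouse J04 of that group it was 0.27 and was called (adjusted p = 0.049). Anakinra mice stayed above sham by 2.13-fold (adjusted p = 4.01e-08).

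Markers of microglia moved in the same samples. All 7 microglia markers fell with PLX3397 (9.89% of all genes called) and with the combination (17.5%). With Anakinra (0.116%) 0 of 7 were called (1 at an unadjusted p below 0.05). The list includes Csf1r, the target of the drug. Their summed level was 312 to 328 TPM in sham, 1216 to 1568 in vehicle, 515 to 788 with PLX3397, 468 to 625 with the combination and 1334 to 1503 with Anakinra. No microglia marker was at 0 in any group. In bulk tissue fewer cells of a type and less RNA per cell cannot be told apart, and the part of microglia in the Il6ra result was not tested.

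Osm followed a similar order. PLX3397 mice had 0.487, 1.33, 1.19, 0.906 and 0.653 TPM, and mice with both drugs 0.778, 0.605, 0.432, 0.479 and 0.601 TPM. The combination group lay wholly below the vehicle mice, while the PLX3397 group overlapped the vehicle mouse J17B. The mean fell to 0.499 of vehicle with PLX3397 (log2 difference -0.56 ± 0.14 SE, adjusted p = 0.00926) and to 0.317 of vehicle with both drugs (-0.82 ± 0.14 SE, adjusted p = 0.000118). With only the vehicle and PLX3397 mice in the model the first of these was no longer called (adjusted p = 0.0635).

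With Anakinra, Osm stood at 2.19, 1.28, 1.42, 1.09 and 1.35 TPM, inside the range of the vehicle mice (log2 difference -0.19, 95% interval from -0.48 to 0.10, adjusted p = 0.595). Osm stayed above sham in every drug group, by 6.51-fold with PLX3397, 10.5-fold with Anakinra and 4.13-fold with the combination (adjusted p of 0.000251, 8.25e-07 and 0.0136).

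Monocyte and macrophage markers also moved beside Osm. Of 6 such markers 5 fell with PLX3397 (9.89% of all genes called) and 5 with the combination (17.5%). With Anakinra (0.116%) none of these markers was called (2 at an unadjusted p below 0.05). Their summed level was 35.1 to 39.4 TPM in sham, 1508 to 2924 in vehicle, 870 to 1558 with PLX3397, 433 to 583 with the combination and 1245 to 2072 with Anakinra. None of the 6 was at 0 throughout a group. The summed level of 5 neutrophil markers was 0.514 to 3.37 TPM in sham, 6.77 to 37.6 in vehicle and 13.3 to 49.5 with PLX3397. It was 10.2 to 26.6 with the combination and 11.7 to 47.4 with Anakinra. Of these 5 markers, Ly6g averaged at most 0.0379 TPM in any group. The list holds Cd68, which the paper counts among microglia-associated genes, so it does not set monocytes and macrophages apart from microglia. The part of any of these cells in the Osm result was not tested.

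**Figure D3:**
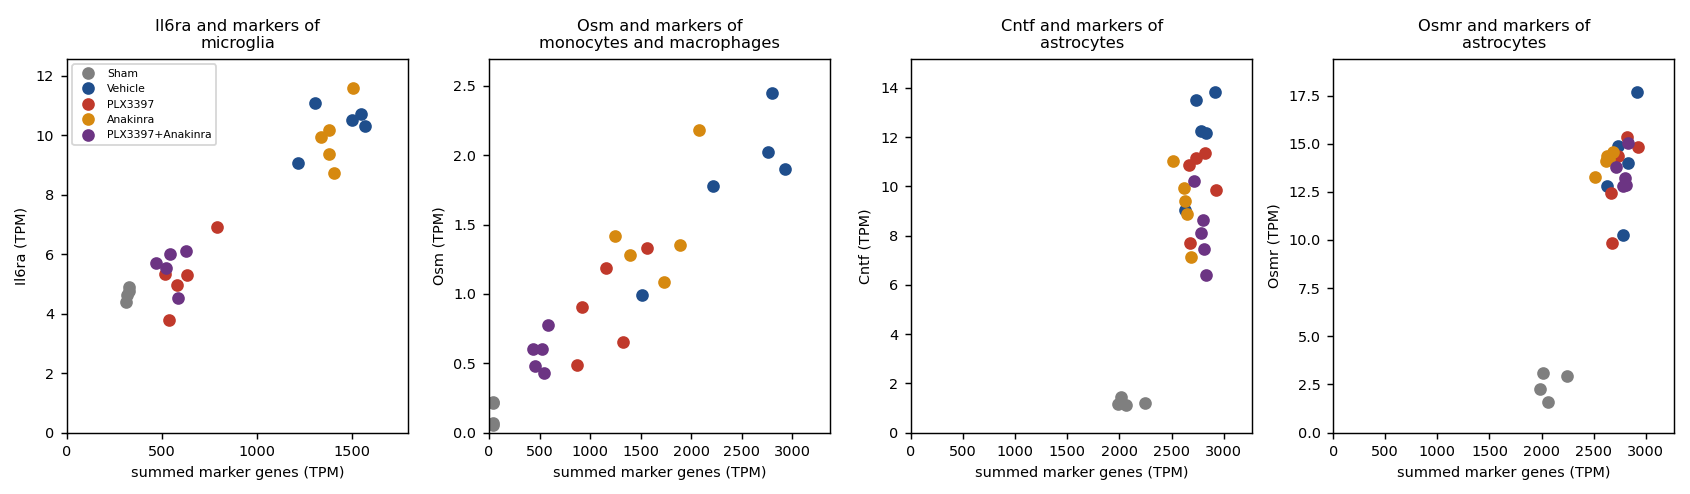
Expression in TPM of Il6ra, Osm, Cntf and Osmr (vertical axes) against the summed TPM of marker genes of microglia, of monocytes and macrophages, and of astrocytes (horizontal axes), 1 point per mouse and 1 colour per group. Il6ra and microglia markers are both low in the PLX3397 groups, whereas astrocyte markers of all injured mice lie between 2511 and 2930 TPM.

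Cntf was called in 1 of the 3 drug groups, the combination. PLX3397 mice had 7.71, 11.2, 10.8, 9.84 and 11.4 TPM, Anakinra mice 11, 9.91, 8.89, 9.41 and 7.14 TPM, and mice with both drugs 8.61, 10.2, 6.39, 7.47 and 8.09 TPM. All 3 groups overlapped the vehicle mouse J01B, which had 9.02 TPM. The log2 difference from vehicle was -0.23 ± 0.12 SE with PLX3397 (adjusted p = 0.259), -0.35 ± 0.12 SE with Anakinra (adjusted p = 0.211) and -0.52 ± 0.12 SE with both (adjusted p = 0.00323). All 3 groups remained above sham, by 8.23-fold, 7.50-fold and 6.59-fold in their means. Zfp91 averaged 93.1, 88.3 and 91.3 TPM in the same groups.

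Il6st changed little. Its mean was 71.9 ± 3.7 TPM with PLX3397, 74.0 ± 4.5 TPM with Anakinra and 70.4 ± 2.8 TPM with both (SD, n = 5 each). The combination was called lower than vehicle (0.894 of vehicle, log2 difference -0.16 ± 0.05 SE, adjusted p = 0.0228), although the groups overlapped. The call was lost without any one of vehicle mice J18B and J19B or combination mice J04 and J09 (adjusted p of 0.083, 0.0575, 0.054 and 0.063). With PLX3397 Il6st was called only without J17B (adjusted p = 0.097 with it and 0.0383 without it).

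Lif and Lifr were not called with any drug. Lif averaged 1.01 ± 0.13 TPM with PLX3397, 1.23 ± 0.22 TPM with Anakinra and 1.08 ± 0.14 TPM with both (SD, n = 5 each), all above the vehicle mean, with adjusted p between 0.253 and 0.561. Lifr averaged 13.3, 13.3 and 13.5 TPM in these groups, all below the vehicle mean, with adjusted p between 0.0954 and 0.248. Every PLX3397 mouse was below every vehicle mouse for Lifr (12.5 to 13.9 against 14 to 15.4 TPM), but only just, at 13.929 against 13.995 TPM. How many of all genes part in this way was not counted, so the separation alone says little.

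Il6 was listed at 0.233, 0, 0.330, 0.757 and 0.109 TPM with PLX3397, at 0.457, 0, 0.456, 0.321 and 0.431 TPM with Anakinra and at 0.217, 0, 0.120, 0 and 0.126 TPM with both. Each injured group held at least 1 mouse at 0. The lowest p of the exact permutation test among injured groups was 0.0635, for both drugs against Anakinra (adjusted p = 0.199).

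Osmr showed no detectable drug response. Its values were 9.82, 14.4, 12.5, 14.8 and 15.4 TPM with PLX3397, 13.3, 14.1, 14.2, 14.4 and 14.6 TPM with Anakinra and 13.2, 13.8, 15, 12.8 and 12.8 TPM with both. All of these lay close to or inside the vehicle range. The log2 difference from vehicle was -0.05 with PLX3397 (95% interval from -0.31 to 0.21), 0.04 with Anakinra (-0.22 to 0.29) and -0.02 with both (-0.28 to 0.24). All 3 groups stayed above sham, by 5.41-fold, 5.71-fold and 5.48-fold. Of 6 astrocyte markers 5 rose after injury, where 54.3% of all genes were called. The summed level of the 6 was 1988 to 2242 TPM in sham and 2511 to 2930 TPM in injured mice.

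Stat3 had 63.3, 67.8, 71.6, 62.8 and 67.9 TPM with PLX3397, 75.1, 73.1, 67.1, 68.3 and 70.9 TPM with Anakinra and 69.7, 62.9, 68.5, 69.2 and 59.8 TPM with both. All groups overlapped the vehicle mice, in the 2 PLX3397 groups through J17B. The log2 difference from vehicle was -0.14 ± 0.06 SE (adjusted p = 0.138), -0.06 ± 0.06 SE (adjusted p = 0.735) and -0.16 ± 0.06 SE (adjusted p = 0.0686). Without J17B, the lowest vehicle mouse, the first and last became -0.21 (adjusted p = 0.00557) and -0.22 (adjusted p = 0.00217) and were called. Without J18B, the highest vehicle mouse, they were -0.11 (adjusted p = 0.353) and -0.12 (adjusted p = 0.21).

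Socs3 had 8.64, 9.94, 15.2, 10.2 and 12.5 TPM with PLX3397, 12.8, 12.1, 16.4, 12.2 and 12.0 TPM with Anakinra and 11.1, 9.67, 16.3, 13.3 and 9.61 TPM with both. The spread within each group covered much of the vehicle range. The log2 difference from vehicle was -0.36 ± 0.15 SE with PLX3397 (adjusted p = 0.144), -0.15 ± 0.15 SE with Anakinra (adjusted p = 0.725) and -0.28 ± 0.15 SE with both (adjusted p = 0.22). Without J17B, the lowest vehicle mouse, it was -0.49 with PLX3397 (adjusted p = 0.019) and -0.41 with both (adjusted p = 0.0373). These calls thus depended on leaving out that mouse. Without J19B, the highest vehicle mouse, it was -0.28 with PLX3397 (adjusted p = 0.336) and -0.20 with both (adjusted p = 0.458). In the drug groups Socs3 stayed above sham, by 4.82-fold, 5.59-fold and 5.12-fold.

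Set against sham, 7 of the 9 genes were higher with PLX3397 (45.2% of all genes called), 8 with Anakinra (54.4%) and 7 with the combination (38.8%). Il6ra and Lifr were the genes not called with PLX3397 and the combination, and Lifr the one not called with Anakinra.

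The drugs were also compared with each other. Between both drugs and PLX3397 alone none of the 9 genes was called, where 0.151% of all genes were, and 1 (Cntf) had an unadjusted p below 0.05. In that comparison 3 of 6 monocyte and macrophage markers were lower, and 0 of 7 microglia markers were called. Osm was not called there (log2 difference -0.26 ± 0.14 SE, adjusted p = 0.773). Both drugs against Anakinra alone gave 2 lower genes, where 12.8% of all genes were called: Il6ra (log2 difference -0.74 ± 0.10 SE, adjusted p = 5.26e-06) and Osm (-0.63 ± 0.14 SE, adjusted p = 0.00266). PLX3397 against Anakinra gave 1 lower gene, Il6ra (-0.82 ± 0.10 SE, adjusted p = 2.33e-06), where 6.69% of all genes were called. For PLX3397 against Anakinra, Osm was not called (-0.37 ± 0.14 SE, adjusted p = 0.121).

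The interaction of the drugs, that is, whether Anakinra acted differently on top of PLX3397 than on vehicle, was called for none of the 9 genes and for 0% of all genes tested. Only Lifr had an unadjusted p below 0.05 there, and its adjusted p was 0.59. For Osm the interaction was -0.07 with a 95% interval from -0.48 to 0.34, and for Il6ra it was 0.13 (-0.15 to 0.42) on the log2 scale.

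The STAT3 target genes were counted with the drugs too. With PLX3397, where 9.89% of all genes were called, 2 of 16 fell: Mcl1, a survival gene (log2 difference -0.26, adjusted p = 0.00138), and Ccnd1, a cell cycle gene (-0.18, adjusted p = 0.0329). Without any one of vehicle mice J18B, J19B and J20B or PLX3397 mouse J20, 1 was called. With Anakinra, where 0.116% of all genes were called, 0 of 16 were (6 at an unadjusted p below 0.05), and without vehicle mouse J18B it was 1. With the combination, where 17.5% of all genes were called, 4 fell: Mcl1 (-0.29, adjusted p = 0.000216), Serpina3n (-0.48, adjusted p = 0.00418), Lcn2, an iron-binding acute-phase protein (-1.52, adjusted p = 0.0105), and Cd44 (-0.40, adjusted p = 0.0163). The astrocyte gene Gfap was not called with any drug, with means of 1945 TPM in vehicle, 1810 with PLX3397, 1743 with Anakinra and 1741 with both.

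Among JAK kinases and regulators, 3 of 12 fell with PLX3397, beside 9.89% of all genes called: Ptpn6 (log2 difference -1.13), Adam17 (-0.46) and Adam10 (-0.24). With the combination, beside 17.5% of all genes called, 4 fell, led by Ptpn6 (-1.45), Adam17 (-0.52), Adam10 (-0.28) and Tyk2, a JAK kinase (-0.22), and Ptpn11 rose by 0.12. Without vehicle mouse J18B or combination mouse J09, 3 of these 5 were called. With Anakinra 0 of 12 were called (1 at an unadjusted p below 0.05), beside 0.116% of all genes. Of the 8 tested other family genes Ebi3 alone was called against those same shares of all genes, lower with PLX3397 (-0.50, adjusted p = 0.0343) and with both drugs (-0.68, adjusted p = 0.00257). The first of these was lost without any one of vehicle mice J18B and J20B or PLX3397 mice J01, J12, J19 and J20, and without J17B 2 genes were called. With Anakinra none of the 8 was called, and none had an unadjusted p below 0.05.

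**Figure D4:**
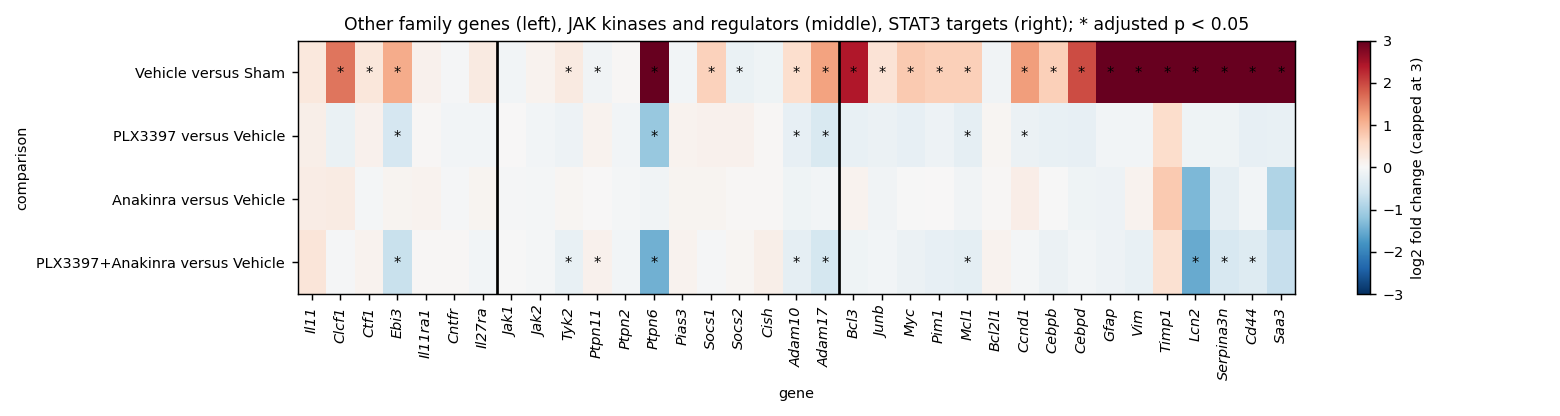
Log2 differences of tested genes of 3 lists (columns: other family genes, JAK kinases and regulators, STAT3 targets) in 4 comparisons (rows). Red is higher and blue lower in the first-named group, colours are capped at 3, and asterisks mark an adjusted p below 0.05. Injury called 15 of 16 STAT3 targets, and PLX3397 2 of them.

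Genes that varied most like Osmr, Stat3 and Socs3 were sought by Pearson's r of log2(TPM + 1) after removing each group's mean, over the 20 injured mice and 12523 genes. These are descriptions across mice that share their libraries. For Osmr they were Cp (ceruloplasmin, r = 0.89), Etfa (0.85) and Tmem176b (0.85). For Stat3 they were Gnai2 (r = 0.93), Wasf2 (0.89) and Ctdsp1 (0.89). For Socs3 they were Rn7s2 (r = 0.87), Rn7s1 (0.87) and Ramp2 (0.86). Rn7s1 and Rn7s2 are near-identical copies of the 7SL RNA, which has no long poly(A) tail, so their levels in these libraries of poly(A)-selected RNA are uncertain. Rn7s1 averaged 204 ± 47 TPM in vehicle (SD, n = 5), against 309 ± 87 with PLX3397, 337 ± 56 with Anakinra, 330 ± 89 with both and 362 ± 81 TPM in sham mice. Vehicle mouse J17B had the lowest value, 130 TPM. The part of such differences between libraries in the Socs3 values was not tested.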

How the data were processed

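RNA from 24 mice, 1 library per mouse, was grouped by the treatment in the labels. The authors used CLC Genomics Workbench and the GRCm38 (mm10) assembly, and the values they deposited are TPM. The full-precision table was used. A table of the same values rounded was an alternative, and a filtered table, which also holds p-values and F values of the authors' tests, was not used. The depth per library is unknown.

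The 17267 genes whose mean reached 0.5 TPM were tested on log2(TPM + 1) with limma 3.58.1 in R 4.3.3, with one mean per group over all libraries, a variance trend and Benjamini-Hochberg adjustment. Il6, under that limit, was compared by exact permutation in SciPy 1.17.1. Nothing in the labels states a pairing of mice. The fit was tested on simulated data.

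The 10 genes and all lists were chosen with earlier results of these data known. Named were all 10 genes, up to 4 called genes per pathway list and comparison with the smallest adjusted p, uncalled list genes, marker genes at or near 0, and the 3 genes (mean of at least 5 TPM) most like Osmr, Stat3 and Socs3. Rn7s1 values by group, Zfp91, Mmp8, Socs2, Ptpn11 and Tyk2 with the combination were added after their values were seen. The markers Csf1r and Cd68 were named without values of their own. Marker lists covered microglia, monocytes and macrophages, neutrophils, astrocytes, endothelium, fibroblasts, oligodendrocytes, neurons, cortex, striatum and thalamus. Gene coordinates are from GENCODE M21 and promoters from RefSeq (GRCm38.p6). As alternatives, the pseudocount was set to 0.1, the filter was dropped (any TPM above 0) or raised to 5 TPM, and further fits used median-ratio rescaling, only the compared groups, no variance trend, the study's rule (unadjusted p below 0.05, ratio above 2, difference above 4 TPM), the rounded table and leaving out each mouse. For the study's rule the p came from limma, whereas the paper names ANOVA-like methods and t-tests. The study's own tests could therefore give other counts. A block on animal numbers was added after seeing the data. The values of 1 gene of the list of other family genes are not reported here.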

Additional observations from a re-analysis of the deposited data

Results flagged for a closer look

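Of 49 groups of 4 or 5 values checked over the 10 genes, 1 held a mouse that stood far from the rest. Socs3 in Anakinra mouse J14 was 16.4 TPM, whereas the other 4 Anakinra mice had 12.0 to 12.8 TPM. Chance alone sets apart a value in about 1 in 20 groups.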

How the results depend on the processing

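Without the letter B, 3 vehicle mice share a number with PLX3397 mice (J01, J19, J20) and J17B with a combination mouse, and the labels do not say that such mice belong together. Deviations from the group means correlated at 0.173, -0.134 and -0.0656 within these 3 pairs, and only J01B correlated best with its own number. In the 6 mice of those pairs, a fit with the number as a block, chosen after seeing the data, called 2 of the 9 genes (Il6ra and Osm), 2 STAT3 targets, 0 other family genes and 703 of all genes, and the same mice without the block 2, 0, 0 and 747. The 68 log2 differences of single genes were refitted 2109 times in all. Their direction and side of the threshold stayed in 2092 refits, 5 lost a call, 6 gained one and 6 changed direction, the last all for values that were not called. Rescaling, the rounded table and a model without variance trend moved no count over 1.5 times. Rescaling moved the median log2 difference of all genes by at most 0.03. The causes of the following changes were not tested, except that a limit of 5 TPM and the study's rule remove scarce genes or small changes.

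For PLX3397 against vehicle, the 9 genes gave 2 calls, but 1 with a mean of at least 5 TPM, 1 with only the compared groups and 0 by the study's rule. The other family genes gave 0 with a pseudocount of 0.1, without a filter, with 5 TPM and by the study's rule. The STAT3 targets gave 1 without a filter, 1 with only the compared groups and 0 by the study's rule, and the regulators 1 by that rule. For the combination against vehicle, the study's rule gave 0 of the 9 genes, 0 other family genes, 1 regulator and 1 STAT3 target. The other family genes gave 0 there with 5 TPM, and the regulators 3 with only the compared groups. For vehicle against sham, the study's rule gave 4 of the 9 genes, 1 other family gene and 2 regulators, and 5 TPM left 0 other family genes. Against sham, that rule gave 3 genes with PLX3397, 4 with Anakinra and 3 with both. Anakinra against vehicle gave 1 STAT3 target by that rule. The combination against Anakinra gave 1 gene with 5 TPM and 0 by the study's rule, and PLX3397 against Anakinra 0 by the latter.

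Leaving out each mouse gave 2 to 5 of the 9 genes for PLX3397 against vehicle, 0 to 2 other family genes and 1 to 2 STAT3 targets. It gave 0 to 1 STAT3 targets for Anakinra against vehicle, 3 to 5 regulators for the combination against vehicle, and 2 to 5 genes over the 4 injured groups. Osmr against vehicle ranged from -0.146 to 0.0485 with PLX3397, from -0.0586 to 0.124 with Anakinra and from -0.116 to 0.0662 with both. Il6ra ranged from -0.0107 to 0.172 for the combination against PLX3397, and the Il6 difference of PLX3397 against Anakinra from -0.165 to 0.0246 TPM. Groups of 5 mice and unknown depth limit what can be said of genes near or under 1 TPM, such as Il6, Lif and Osm.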
